A study of Felis catus with 6 samples.

Results

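MKI67 and MDM2 were followed across 6 libraries of PETCC2610, a feline kidney cell line, sequenced as polyA RNA. They are the 2 genes, of the 633 in the authors' deposited table, whose gene name is MKI67 or MDM2, and each has 1 row (gene-MKI67 and gene-MDM2). There were 3 libraries of cells given DOX, the agent that the series uses to induce senescence, and 3 of cells given DOX together with peptide E. All 6 libraries therefore carry DOX. The labels do not spell out DOX and give neither doses nor times, and cells without DOX, or with peptide E alone, were not analysed here. The series text describes 3 biological replicates per condition, but not whether they were separate cultures, so p-values measure the spread between these libraries, which may be partly technical.

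MKI67 encodes Ki-67, a large nuclear protein that coats mitotic chromosomes and keeps them apart. It is made by cycling cells and lost from cells that have left the cycle, which is why it serves as a marker of proliferation and why its loss is used as a sign of senescence. MDM2 encodes a ubiquitin ligase that binds the tumour suppressor p53 and marks it for degradation. p53 in turn activates transcription of MDM2, so the pair form a negative feedback loop, and MDM2 transcript is commonly read together with other p53 targets such as the CDK inhibitor gene CDKN1A. Active p53 also lowers many cell cycle genes, through CDKN1A and the DREAM complex.

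The table gives a normalized expression value per gene and library. Its unit is not stated, so the value of MKI67 is not compared here with that of MDM2, and the depth of the libraries is unknown. Each of the 633 genes is marked significant by the authors. The largest unadjusted p in the authors' deposited table is 0.0498 and the smallest change in either direction is 1.50-fold, with 293 genes listed higher with peptide E and 340 lower. A gene is therefore seen only if it passed that selection on these same libraries. Tubular epithelial markers, checked against the kidney label, had 5 of 22 symbols listed, all lower and none at 0 in any library: KRT7, KRT18, KRT19, AQP1 and HAVCR1. Their summed value was 864 to 1099.5 in the DOX libraries and 580 to 783 in the peptide E libraries. This sum is mostly KRT18 and KRT7, with a log2 of the mean value plus 1 of 8.91 and 8.45. AQP1, KRT19 and HAVCR1 were low, at 1.84, 1.63 and 1.07. AQP1 and HAVCR1 did not pass the limma test used below (adjusted p = 0.0897 and 0.405). The part of the sum in the results on MKI67 and MDM2 was not tested. Fibroblast, endothelial and immune markers (11, 9 and 10 symbols) had no listed member and were not analysed here.

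MKI67 was higher with peptide E in every library. Its value was 13.01, 13.04 and 11.56 in DOX replicates 1, 2 and 3, and 18.68, 26.44 and 33.93 in peptide E replicates 1, 2 and 3. The 2 groups did not overlap: the lowest peptide E library was 1.43 times the highest DOX library. The mean rose from 12.5 ± 0.846 to 26.4 ± 7.63 (SD, n = 3 each), a ratio of 2.10. On the log2(value + 1) scale the limma log2 fold change was 0.98 (standard error 0.20, 95% confidence interval 0.54 to 1.42), with a Benjamini-Hochberg adjusted p of 0.00741 over the 499 listed genes whose mean reached 1 in the DOX group, the peptide E group or both. This call is near the background of the table: limma called 71.1% of all tested genes and 97.9% of those listed higher. Groups that did not overlap were found in 76.1% of all 633 genes and in 93.9% of those listed higher. In bulk RNA, more cells that express MKI67 and more MKI67 transcript per cell cannot be told apart.

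MDM2 was lower with peptide E in every library. Its value was 295.24, 339.58 and 329.79 in DOX replicates 1, 2 and 3, and 232.22, 249.92 and 219.29 in peptide E replicates 1, 2 and 3. Again the groups did not overlap, with the highest peptide E library at 0.846 times the lowest DOX library. The mean fell from 322 ± 23.3 to 234 ± 15.4 (SD, n = 3 each), a ratio of 0.727. The limma log2 fold change was -0.46 (standard error of 0.14, 95% confidence interval -0.76 to -0.15, Benjamini-Hochberg adjusted p = 0.0149). Among tested genes listed lower, limma called 45.9%, and 60.9% of all genes listed lower had groups without overlap. The call was lost without DOX replicate 2 (limma log2 fold change -0.42, adjusted p = 0.0550) and without DOX replicate 3 (-0.44, adjusted p = 0.0742).

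**Figure D1:**
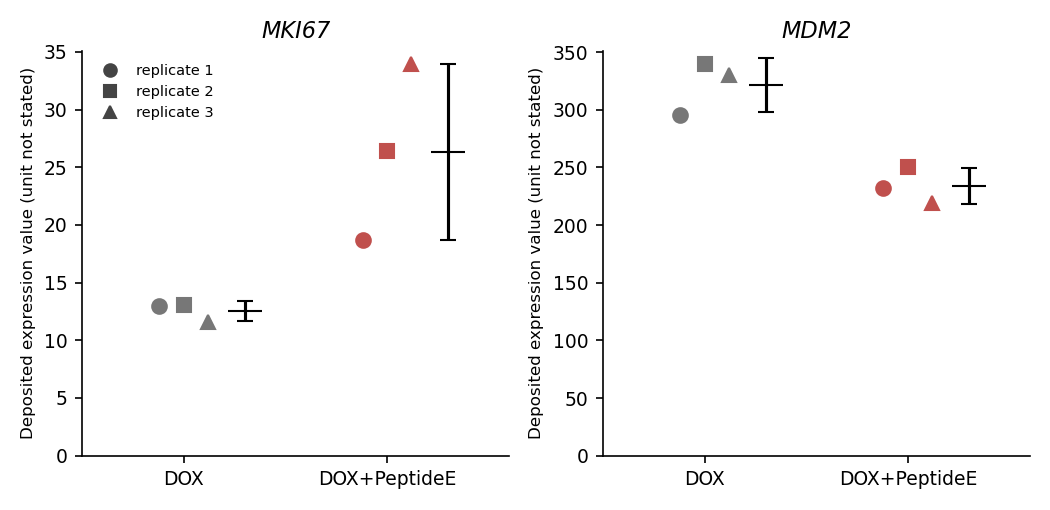
Deposited expression value of MKI67 (left) and MDM2 (right) in each library, on linear axes from 0, with DOX in grey and DOX+PeptideE in red; marker shapes give the replicate number and bars the mean ± SD (n = 3). The peptide E libraries of MKI67 spread from 18.68 to 33.93, all above the DOX libraries, while those of MDM2 lie between 219.29 and 249.92, all below them.

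The 2 genes differed in how evenly the peptide E libraries responded. For MKI67 the highest peptide E library was 1.82 times the lowest, against 1.13 times among the DOX libraries. The coefficient of variation was 28.9% with peptide E and 6.75% with DOX. A wide spread in the peptide E group was common in the table: the median of this highest-to-lowest ratio over the 242 tested genes listed higher was 1.72 with peptide E and 1.19 with DOX. For MDM2 the same ratio was 1.14 with peptide E and 1.15 with DOX, against medians of 1.38 and 1.28 over the 257 tested genes listed lower.

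The peptide E library that was highest for MKI67 was also the highest for most genes listed higher. Replicate 3 held the highest peptide E value in 217 of the 242 tested genes listed higher, and replicate 1 the lowest in 225. Relative to the DOX mean on the log2(value + 1) scale, MKI67 stood at 0.54, 1.02 and 1.37 in peptide E replicates 1, 2 and 3. The median gene listed higher stood at 0.39, 0.79 and 1.03 in the same libraries, so MKI67 exceeded it by 0.15, 0.23 and 0.34. The added 1 shrinks the deviations of genes with values below those of MKI67 more, so the size of this excess depends on it. For MDM2 the deviations were -0.47, -0.36 and -0.55, and for the median tested gene listed lower they were -0.33, -0.42 and -0.51. MDM2 lay below that median by 0.13 in replicate 1 and 0.04 in replicate 3, and above it by 0.06 in replicate 2. Among the 257 tested genes listed lower, the order was less uniform: the lowest peptide E value was in replicate 3 for 138, replicate 1 for 67 and replicate 2 for 49. The size of the MKI67 difference thus moved with a difference among the peptide E libraries that most tested genes listed higher shared. Its part in the MKI67 result was not tested, and genes outside the listed ones cannot be seen.

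Because the deposited values and the authors' fold changes are on different scales, the size of each difference depended on the scale, though the direction did not. The log2 ratio of the deposited means was 1.07 for MKI67 and -0.46 for MDM2. In the authors' deposited table MKI67 has a log2 fold change of 0.77 and MDM2 of -0.73, or fold changes of 1.70 and 0.601. It gives unadjusted p-values of 6.18e-08 and 8.45e-10 and adjusted p-values of 2.70e-05 and 8.39e-07. By unadjusted p in the authors' deposited table, MKI67 ranked 7 among the genes listed higher and MDM2 ranked 8 among those listed lower. In 196 genes that averaged 5 or more in each group, the log2 fold change in the authors' deposited table was below the log2 ratio of the deposited means by a median of 0.27. With the peptide E libraries lowered by that amount, the limma log2 fold changes were 0.72 for MKI67 (adjusted p = 0.0123) and -0.72 for MDM2 (adjusted p = 0.00472). With each library centred on its median over the tested genes they were 0.68 and -0.76 (limma adjusted p of 0.00946 and 0.0108). These rescalings moved the median of the tested genes by -0.22 and -0.30. The median used for centring is taken over genes that all passed the authors' selection for a difference, so no unchanged genes anchor it. As deposited, then, the MKI67 change was the larger of the 2 (0.98 against -0.46), while after either rescaling the sizes were close. This difference in size was not tested.

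A ratio of the 2 genes within a library does not depend on how that library was scaled, apart from the added 1. The log2 ratio of MKI67 to MDM2 was -4.40, -4.60 and -4.72 in DOX replicates 1, 2 and 3, and -3.57, -3.19 and -2.66 in peptide E replicates 1, 2 and 3. Every peptide E library was thus above every DOX library. The mean went from -4.57 ± 0.160 to -3.14 ± 0.457 (SD, n = 3 each), a difference of 1.44 on the log2 scale, or 2.70-fold. The 2-sided exact permutation test over libraries gave p = 0.1, which is the smallest p that 3 against 3 libraries allow. With MKI67 higher and MDM2 lower in every peptide E library, the ratio could not overlap, so this p was fixed in advance. It adds no support to the values of the 2 genes. The level of this ratio has no meaning of its own while the unit is unknown, and only its difference between libraries is read. In the authors' deposited table the corresponding difference between the log2 fold changes is 1.50, and from the deposited means it is 1.53.

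**Figure D2:**
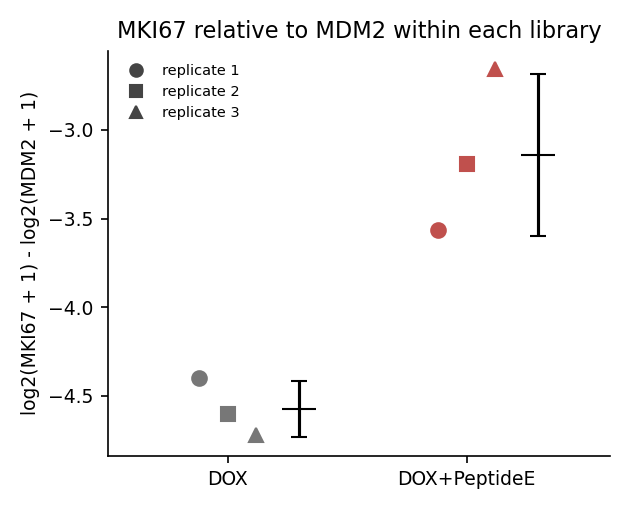
Difference of log2(MKI67 + 1) and log2(MDM2 + 1) in each library, with DOX in grey and DOX+PeptideE in red; bars are the mean ± SD (n = 3) and the log2 axis does not start at 0. The DOX libraries lie between -4.72 and -4.40 and the peptide E libraries between -3.57 and -2.66.

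Other genes of the cell cycle were then looked up. Of 39 symbols for S phase and DNA replication (such as MCM2, PCNA and RRM2), none was listed. Of 57 for G2 phase and mitosis (such as TOP2A, CCNB1 and AURKA), MKI67 alone was listed. Of 27 for CDKs, D cyclins, CDK inhibitors, pocket proteins and the DREAM complex (such as CDKN1A, CDKN2A and RB1), none was listed. Of these 123 symbols 122 are found in the RefSeq annotation of the cat, although which annotation the authors used is not stated. The table as analysed here therefore holds 1 of 123 cell cycle symbols. It does not say whether the other 122 were unchanged, changed by less than 1.5-fold, or changed with too wide a spread to be selected. Nor does it give their levels. A rise of MKI67 is what is seen here, and a rise of the proliferation genes as a group cannot be read. The share of all annotated genes that the 633 make up was not computed. The count of 1 in 123, and those of the lists below, are therefore not read as few or many.

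The lists do not hold every gene with a role in division, and some others were listed. The following 6 were chosen after their values were seen, and so carry no test. CIT, the kinase of the cytokinetic midbody, was at 1.72, 2.16 and 1.87 with DOX and 2.79, 4.24 and 5.69 with peptide E (replicates 1, 2 and 3). TICRR, which helps start DNA replication, was at 3.47, 3.16 and 3.47 with DOX and 4.99, 7.18 and 8.04 with peptide E. TROAP, a spindle-associated protein gene, was at 3.56, 4.78 and 4.21 with DOX and 6.84, 8.07 and 8.38 with peptide E. In each of these the groups did not overlap, and replicate 3 was the highest peptide E library. Both traits are common in the table: 93.9% of the genes listed higher had no overlap, and replicate 3 was highest in 217 of the 242 tested ones. CCNB3, a B-type cyclin gene best known from meiosis, had means of 1.38 ± 0.0656 and 2.73 ± 0.865, and PCNT, a centrosome scaffold gene, of 1.88 ± 0.159 and 3.91 ± 1.16 (SD, n = 3 each). WDR62, a spindle pole gene, was even across the peptide E libraries, at 4.87, 5.04 and 5.09, against 2.87, 2.27 and 2.35 with DOX. All 6 are listed as higher, which was known when they were picked and so adds no support. Their fold changes in the authors' deposited table are 1.53 (TROAP) to 1.83 (CIT).

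Among 41 transcriptional targets of p53, 3 were listed, all lower with peptide E: MDM2, GDF15 and SFN. All 3 passed limma, against 23.6% of the 499 tested genes called lower and 45.9% of the tested genes listed lower. Their median limma log2 fold change was -0.49 against -0.41 for the tested genes listed lower. SFN encodes 14-3-3 sigma, which holds cells in G2 after DNA damage. It was at 48.46, 38.39 and 41.93 with DOX and 30.09, 25.15 and 24.86 with peptide E, with no overlap, as in 60.9% of the genes listed lower (log2 fold change -0.66, standard error (SE) 0.16, limma adjusted p = 0.00752). GDF15, a secreted stress cytokine, was at 8.86, 7.36 and 9.20 with DOX and 6.01, 4.73 and 6.61 with peptide E, also without overlap (log2 fold change -0.49, SE 0.18, limma adjusted p = 0.0308). The limma call of GDF15 was lost without DOX replicate 1 (adjusted p = 0.0974), DOX replicate 3 (0.125) or peptide E replicate 2 (0.144). SERPINB5, the gene of maspin, is also known as a p53 target and was picked after its values were seen. It was at 86.13, 98.92 and 91.46 with DOX and 61.00, 64.74 and 65.98 with peptide E.

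These 3 listed targets are also responsive to other inputs, and what lowered them was not tested. Apart from MDM2, other well known p53 targets were not among the listed genes. CDKN1A, BAX, BBC3, CCNG1, SESN1, ZMAT3, RRM2B and PPM1D were among the 38 target symbols without a row, and were not analysed here. The data thus show lower MDM2 transcript, with 2 further target genes lower. The other 38 are not among the genes that passed the authors' selection, and their levels are not given. The 25 genes of DNA damage sensing and repair (such as ATM, CHEK1 and BRCA1) had no listed member.

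Among 32 symbols of proteins that regulate p53, 4 were listed, all higher with peptide E. EP300 and CREBBP encode acetyltransferases that act as coactivators of p53 and of many other factors. EP300 was at 2.26, 2.51 and 2.21 with DOX and 2.95, 5.14 and 7.11 with peptide E (log2 fold change 0.81, SE 0.24, limma adjusted p = 0.0133). CREBBP was at 2.68, 2.64 and 2.45 with DOX and 3.53, 5.26 and 6.77 with peptide E (log2 fold change 0.75, SE 0.21, limma adjusted p = 0.0111). Without peptide E replicate 2 both calls were lost, with limma adjusted p of 0.0543 for EP300 and 0.0512 for CREBBP. HUWE1, a ubiquitin ligase gene whose product can also act on p53, was at 6.06, 5.77 and 5.50 with DOX and 8, 11.15 and 13.88 with peptide E (limma log2 fold change 0.80, adjusted p = 0.00760). TRRAP, a scaffold of histone acetyltransferase complexes, was at 1.69, 1.96 and 1.92 with DOX and 2.79, 4.06 and 5.29 with peptide E (limma log2 fold change 0.79, adjusted p = 0.00855). None of the 4 overlapped between groups, against 93.9% of all genes listed higher without overlap. All 4 passed limma, as did 47.5% of all tested genes in this direction and 97.9% of the tested genes listed higher, so both counts are near the background. Their median of 0.79 compares with 0.74 for all tested genes listed higher. UBE4B, whose product extends ubiquitin chains on p53 together with MDM2, was picked after its values were seen, at means of 5.63 ± 0.425 and 10.4 ± 1.91 (SD, n = 3 each). MDM4, the partner and relative of MDM2, and USP7, which removes ubiquitin from both MDM2 and p53, were not listed.

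**Figure D3:**
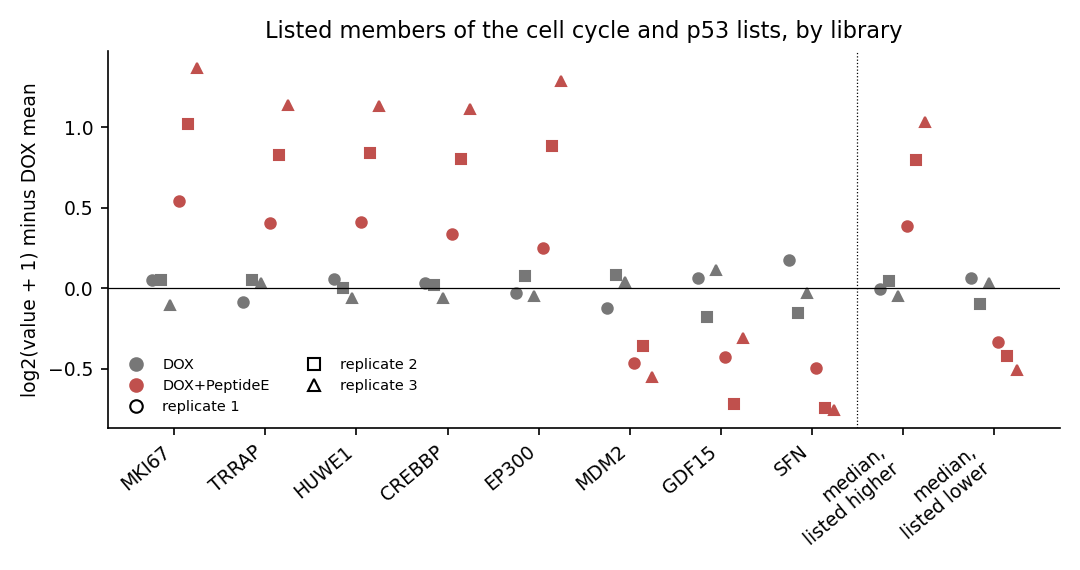
Deviation of log2(value + 1) from the DOX mean in each library, for the 8 listed members of the cell cycle and p53 lists and, right of the dotted line, for the median of the tested genes listed higher (242) and lower (257); DOX is grey, DOX+PeptideE red, and shapes give the replicate. MKI67, TRRAP, HUWE1, CREBBP and EP300 have the same order of peptide E libraries as the median gene listed higher, and MDM2, GDF15 and SFN are below 0 in all 3 peptide E libraries.

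Genes with the pattern most like each of the 2 were taken as the 5 with the smallest distance over the 6 libraries, computed between deviations from the DOX mean on the log2(value + 1) scale. For MKI67 these were NOTCH2 (distance 0.12), MAN2A2 (0.14), PXDN (0.16), IGF2R (0.16) and CREB3L2 (0.19). NOTCH2, a receptor of the Notch family, was at 10.74, 10.71 and 10.04 with DOX and 14.64, 21.66 and 29.20 with peptide E. PXDN, a matrix peroxidase gene, was at 35.11, 33.49 and 32.41 with DOX and 52.32, 68.91 and 82.14 with peptide E. MAN2A2 acts in glycan trimming in the Golgi, IGF2R encodes a receptor that carries enzymes to lysosomes, and CREB3L2 encodes a transcription factor of the secretory pathway. None of these 5 is in the cell cycle lists, and all had peptide E values lowest in replicate 1 and highest in replicate 3. The closeness of CREB3L2 depends on the added 1. With it the limma log2 fold change was 0.90 for CREB3L2 and 0.98 for MKI67, and with a pseudocount of 0.1 it was 1.08 and 1.03. NOTCH2, MAN2A2, PXDN and IGF2R were then at 0.99, 0.96, 0.98 and 1.01.

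For MDM2 the closest were CIDEB (distance 0.17), CCL8 (0.19), PRAP1 (0.20), FBP1 (0.21) and CST7 (0.21). CIDEB, a lipid droplet protein gene, was at 23.55, 27.35 and 26.52 with DOX and 18.91, 19.51 and 19.58 with peptide E. FBP1, a gluconeogenic enzyme gene, was at 1.05, 1.58 and 1.11 with DOX and 0.74, 0.73 and 0.55 with peptide E. At such low values its closeness to MDM2 depends on the added 1, and so does that of CST7, which was also low. With a pseudocount of 0.1 the limma log2 fold change was -0.79 for FBP1, -0.69 for CST7 and -0.46 for MDM2. It was -0.41 for CIDEB, -0.46 for CCL8 and -0.45 for PRAP1. PRAP1 did not pass limma (adjusted p = 0.0508). CCL8 encodes a monocyte chemoattractant and CST7 a cysteine protease inhibitor. None of these 5 is in the p53 target list, but that list does not hold every p53 target (SERPINB5 is outside it). The distances over 6 libraries mainly measure the shared difference between the 2 groups, and nothing about shared control is read from them.

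On the log2(value + 1) scale, MKI67 was near the top of the tested genes listed higher by size of difference. MDM2 was moderate among those listed lower. By limma log2 fold change MKI67 ranked 10 of 242 tested genes listed higher, and MDM2 ranked 98 of 257 listed lower. The added 1 shrinks the fold changes of genes with lower values more, so the rank of MKI67 depends on it. In the ratio of deposited means, EP300, TRRAP, CREB3L2 and CIT (2.18, 2.18, 2.20 and 2.21) exceeded MKI67 (2.10). The other named genes listed higher did not. The same held for the log2 fold change in the authors' deposited table. The rank of MKI67 among all genes listed higher was not computed on these scales. Direction also went with the size of the deposited value. All 37 listed genes with a mean over the 6 libraries of at least 100, MDM2 among them, were lower. Of the 70 listed genes with a mean from 10 to 30, where MKI67 falls, 26 were higher and 44 lower. Transcript lengths were not used here, so whether direction also went with length was not tested.

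**Figure D4:**
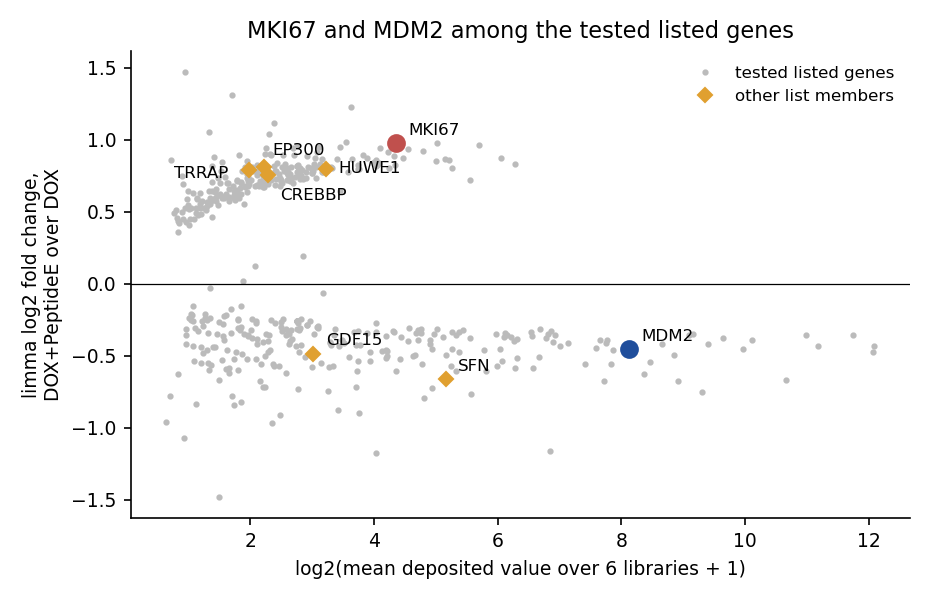
Limma log2 fold change of DOX+PeptideE over DOX against log2 of the mean deposited value plus 1 for the 499 tested genes (grey points), with MKI67 in red, MDM2 in blue and the other listed members of the lists as diamonds. On this log2(value + 1) scale MKI67 (0.98) lies near the upper edge of the genes listed higher, and MDM2 (-0.46) within those listed lower. Few points lie between the 2 bands since every listed gene differs by at least 1.5-fold in the authors' deposited table.

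**Figure D5:**
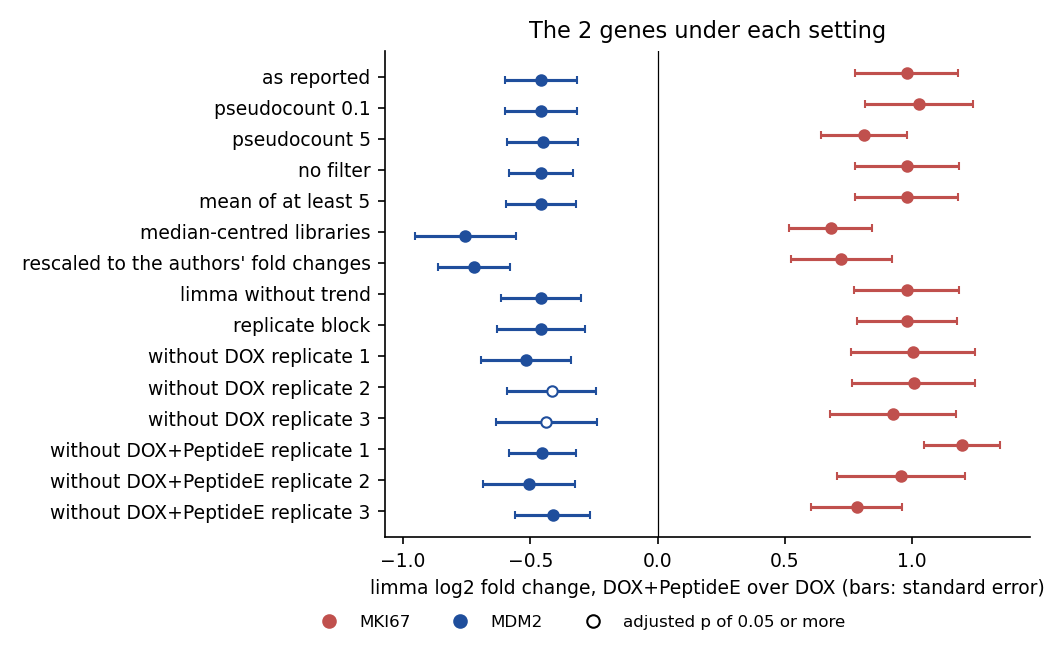
Limma log2 fold change of MKI67 (red) and MDM2 (blue) as reported and under each alternative, with bars of 1 standard error; open symbols have an adjusted p of 0.05 or more. MKI67 lies between 0.68 and 1.20 and MDM2 between -0.76 and -0.41 across the alternatives, and only MDM2 without DOX replicate 2 or 3 has an open symbol.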

How the data were processed

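PolyA RNA from 6 libraries was sequenced as read pairs on a NovaSeq instrument, per the labels' protocols. FastQC 0.11.9 and fastp 0.19.5 are named in the submitters' processing notes. No aligner, genome build, annotation or use of strand is stated there, or elsewhere in the labels. The deposited table has 633 genes and holds, per library, a normalized expression signal computed by the authors, with no unit in its header. It also holds the authors' group means, the fold change (a ratio) and log2 fold change of DOX+PeptideE over DOX, and the authors' p-values, per the file headers. Depth is unknown, so no counting interval is given. The listed genes summed to 25083 to 39465 per library, which does not measure depth.

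Libraries were grouped by title. Values were tested as log2(value + 1) with limma 3.58.1 in R 4.3.3 (variance trend, both groups) on the 499 genes whose mean reached 1 in either group, with Benjamini-Hochberg adjustment and a threshold of 0.05. The script was tested on simulated data. The ratio was tested by exact permutation (scipy 1.17.1). Because the authors selected the genes on these libraries, adjusted p-values can be smaller than over all genes. The 2 genes, the 6 lists of 220 symbols (1 symbol is in a pair of lists) and the tests were chosen with earlier results of these data known. These counts leave out 1 symbol that is not reported here. The rule for named genes took both members, the listed members of the lists and the 5 nearest genes of each member. Another 8 genes (CIT, TICRR, TROAP, CCNB3, PCNT, WDR62, SERPINB5 and UBE4B) were chosen after their values were seen. Symbols were matched to the RefSeq table of F.catus_Fca126_mat1.0 (216 of 220 by symbol or synonym, and all 633 listed genes). Alternatives were other pseudocounts, filters and scalings, no variance trend, a replicate block and leaving out each library.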

Additional observations from a re-analysis of the deposited data

How the results depend on the processing

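The limma log2 fold change of MKI67 kept its direction and stayed past the threshold in all 14 alternatives, with adjusted p of 7.89e-05 to 0.0415 and values of 0.78 to 1.20 with 1 library left out. MDM2 kept its direction in all 14 and stayed past the threshold in 12, with values of -0.52 to -0.41 and limma adjusted p of 0.00794 to 0.0742 with 1 library left out. In both genes the groups do not overlap, so leaving out a library could not have changed a direction. Replicate numbers were not found to pair the libraries: deviations of same-numbered libraries correlated at 0.34, -0.04 and -0.09 across 499 genes, which are not independent. With a replicate block limma called 362 genes against 355, with MKI67 at 0.98 (adjusted p = 7.89e-05) and MDM2 at -0.46 (adjusted p = 0.0165). The MKI67 to MDM2 difference was 1.44 with the replicate block (exact sign-flip p = 0.25, the smallest possible). That p was also fixed in advance, since the groups do not overlap in either gene. The difference was 1.19 to 1.65 with 1 library left out, and 1.48 and 1.26 with pseudocounts of 0.1 and 5. Limma called 355 of 499 genes as reported, 66.8% of them higher, against 42.9% of 438 after median-centring and 46.6% of 455 after rescaling to the authors' fold changes. With a mean of at least 5 it called 203 of 287 genes, since fewer genes are tested. Leaving out 1 library gave 180 to 413 calls, the fewest without peptide E replicate 2. The planned correction for protein length was not run, since no protein lengths were used here.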
